A study of Mus musculus with 12 samples.

Results

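Blood vessels are lined by endothelial cells, and 10 genes that mark these cells were followed in bulk RNA from B16-F10 tumors: Pecam1, Cdh5, Esam, Cldn5, Kdr, Flt1, Tek, Tie1, Eng and Emcn. The genes were given as a set of vascular markers and taken by symbol from the deposited counts. All 10 were found among 23420 genes, and all 10 were among the 13095 genes that passed the filter on low counts. B16-F10 is a mouse melanoma line, grown here under the skin of the flank of male C57BL/6J mice. Western diet (obese) or control diet (nonobese) feeding began at 4 to 5 weeks of age and lasted 15 weeks for males. Antibody treatment started when a tumor was palpable, with 3 injections a week at 10 mg/kg. It was either anti-PD-1 (clone 29F.1A12) or an isotype control (clone 2A3), and tumors were collected at day 16. The 12 tumors form 4 groups of 3, with isotype or anti-PD-1 antibody in nonobese mice and the same antibodies in obese mice. All 4 groups carry the same implanted line as a subcutaneous graft whose vessels come from the host, and every mouse received an antibody.

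Endothelial cells are held together by adhesion molecules, of which VE-cadherin (Cdh5) and PECAM-1 (Pecam1) are the best known. They respond to VEGF-A through the receptors VEGFR2 (Kdr) and VEGFR1 (Flt1) and to angiopoietins through TIE2 (Tek), which works with the orphan receptor TIE1 (Tie1). Endoglin (Eng) is a coreceptor for BMP9 and TGF-beta ligands, and endomucin (Emcn) is a sialomucin of capillaries and veins. Tumors need such vessels for oxygen, and leukocytes enter tumors across their endothelium.

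Between 14022929 and 33871843 reads per tumor were assigned to genes. The libraries with the fewest counts were obese isotype replicate 2 and obese anti-PD-1 replicate 1, and both were also low in most of the 10 genes, so results that rest on them are given with and without them. Levels are CPM values, counts scaled to library size with TMM factors, and levels between genes are compared per kilobase of exon (RPKM). Across all genes, the median log2 fold change was between -0.04 and 0.02 in the 5 comparisons below. A gene passed the thresholds of the study when its fold change was above 2 at an unadjusted P below 0.05, and FDR values adjusted over 13095 genes are given beside it. In bulk tumors, fewer endothelial cells and less RNA per endothelial cell cannot be told apart. Bulk counts also do not show which cells the RNA of each gene came from, Eng included, and this was not tested.

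All 10 genes were detected in every tumor, from at least 10 counts for Tek to at least 3700 for Eng. Per length, Eng was the most abundant at 95.4 ± 13.9 RPKM (SD, n = 12 tumors). It was followed by Cdh5 at 10.2 ± 2.08, a ratio of means of 9.33, and Eng was the higher of these genes in 12 of 12 tumors. Pecam1 was at 6.43 ± 1.51, Esam at 4.76 ± 0.866, Tie1 at 3.88 ± 1.09 and Kdr at 2.99 ± 0.821 RPKM. The lower end held Cldn5 at 2.08 ± 0.408, Emcn at 1.71 ± 0.295, Flt1 at 1.63 ± 0.335 and Tek at 0.485 ± 0.290 RPKM. Only Eng at the top and Tek at the bottom were separated from their neighbor in this order without any overlap of the ranges over tumors. Within tumors, Cdh5 was above Pecam1 and Pecam1 above Esam in 12 of 12, whereas Emcn was above Flt1 in 8 of 12. The middle of the order depends on the gene length used, since with the longest transcript in place of all exons Pecam1 (11.6) stood above Cdh5 (10.8), Kdr (4.56) above Tie1 (4.50) and Flt1 (3.19) above Emcn (2.62) and Cldn5 (2.08). Eng shares 61 bases of exon with Fpgs on the opposite strand, and the other 9 genes share none with another gene in the GENCODE M21 annotation.

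**Figure D1:**
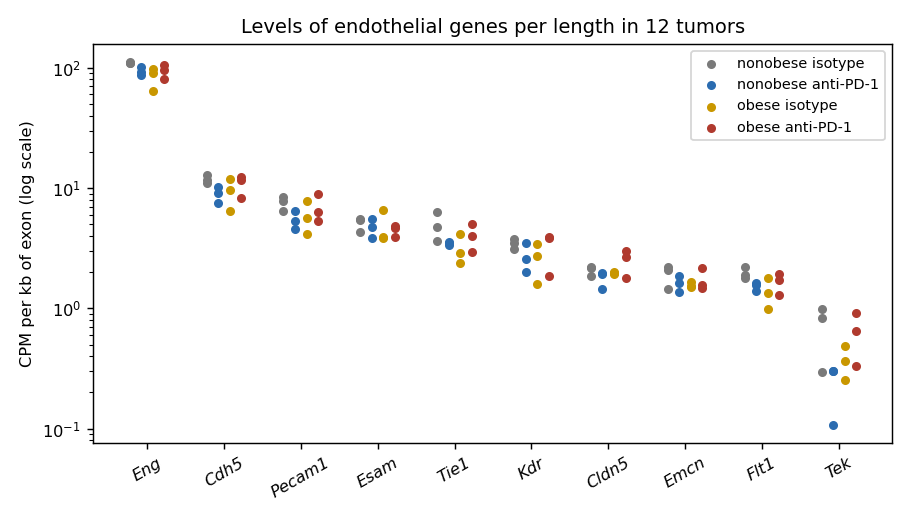
Level of each gene per kilobase of exon (CPM per kb, log axis), 1 point per tumor, colored by group. Eng lies between 63.9 and 111 in all 12 tumors and Tek between 0.108 and 0.988.

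The genes differed in how much they varied. The coefficient of variation over the 12 tumors was 59.7% for Tek, whose highest tumor was 9.16-fold above its lowest. For the other 9 genes it ran from 14.6% for Eng to 28.1% for Tie1, and the highest tumor was 1.63-fold (Emcn) to 2.66-fold (Tie1) above the lowest. The counts of Tek were low, at 10 to 134 per tumor, and those of Cldn5, with a coefficient of variation of 19.6%, were 39 to 105.

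The stretches directly upstream of the start site were read for these genes because endothelial promoters are known for sites of ETS factors, whose core is GGAA. The RefSeq table of GRCm38.p6 promoters held 7 of the 10 genes, and Pecam1, Cdh5 and Esam had no entry. The 250 bases before the start are printed for genes whose RefSeq and GENCODE starts are the same base. They show the most variable gene (Tek), a VEGF receptor (Flt1), the most abundant gene (Eng) and the gene that went least with the others (Cldn5). Capitals mark GGAA or its reverse complement TTCC, read 5′ to 3′ on the strand of the gene.
Tek, chr4:94739039-94739288, plus strand: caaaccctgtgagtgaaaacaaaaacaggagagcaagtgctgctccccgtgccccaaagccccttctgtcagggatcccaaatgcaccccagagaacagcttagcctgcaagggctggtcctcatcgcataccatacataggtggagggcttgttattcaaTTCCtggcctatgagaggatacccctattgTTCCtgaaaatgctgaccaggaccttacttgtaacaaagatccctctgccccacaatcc
Flt1, chr5:147726012-147726261, minus strand: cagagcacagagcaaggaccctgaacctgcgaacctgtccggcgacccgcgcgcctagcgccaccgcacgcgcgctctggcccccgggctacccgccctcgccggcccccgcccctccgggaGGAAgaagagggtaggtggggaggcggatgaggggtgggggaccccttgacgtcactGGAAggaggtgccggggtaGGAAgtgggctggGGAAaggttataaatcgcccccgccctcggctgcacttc
Eng, chr2:32646345-32646594, plus strand: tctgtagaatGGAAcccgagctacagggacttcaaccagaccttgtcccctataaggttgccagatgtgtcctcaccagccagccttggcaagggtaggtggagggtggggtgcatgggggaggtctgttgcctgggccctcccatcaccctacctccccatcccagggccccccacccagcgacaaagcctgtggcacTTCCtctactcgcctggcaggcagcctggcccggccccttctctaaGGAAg
Cldn5, chr16:18776597-18776846, plus strand: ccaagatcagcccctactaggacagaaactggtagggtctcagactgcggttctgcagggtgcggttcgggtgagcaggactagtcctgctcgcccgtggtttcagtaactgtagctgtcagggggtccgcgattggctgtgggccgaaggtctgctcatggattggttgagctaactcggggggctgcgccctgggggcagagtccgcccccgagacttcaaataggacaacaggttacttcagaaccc
The core occurred 2 times for Tek, 4 times for Flt1, 3 times for Eng and 0 times for Cldn5. In the stretches not printed it occurred 4 times for Kdr, 7 times for Tie1 and 4 times for Emcn. Thus 6 of 7 held it, against 93.4% of all 32851 promoters in the table, where the median was 3 matches. GATA or its reverse complement TATC was found for Tek and Kdr, 2 of 7, against 53.6% of all promoters. The hypoxia response core ACGTG or CACGT was found for 0 of 7, against 16.6%. A match of letters is a description of the window and not a binding site.

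Of the adhesion genes, Pecam1, Cdh5 and Esam had their highest group mean in the nonobese isotype tumors. Pecam1 (ENSMUSG00000020717.19, chr11:106654217-106750628, minus strand) was at 40.2, 48.9 and 52.4 CPM in the nonobese isotype tumors, 28.6, 33.1 and 40.5 with anti-PD-1, 48.2, 25.8 and 35.3 in obese isotype tumors and 33.0, 39.2 and 55.1 in obese anti-PD-1 tumors. Cdh5 (ENSMUSG00000031871.9, chr8:104101625-104144511, plus strand) was at 46.4, 54.2 and 49.4 CPM in nonobese isotype tumors, 31.3, 38.2 and 42.6 with anti-PD-1, 50.2, 26.9 and 40.8 in obese isotype tumors and 34.7, 49.1 and 52.1 in obese anti-PD-1 tumors. For Cdh5 every nonobese anti-PD-1 tumor was below every nonobese isotype tumor, whereas the obese groups overlapped each other for both genes. Esam (chr9:37528078-37538319, plus strand), an adhesion molecule of endothelial junctions and platelets, lay between 10.98 and 18.9 CPM with overlap of all 4 groups, whose means were 14.6, 13.5, 13.7 and 12.8 CPM. Cldn5 (chr16:18776847-18778262, plus strand), a claudin of endothelial tight junctions, lay between 2.05 and 4.23 CPM, and its group means of 2.95 ± 0.293, 2.53 ± 0.412, 2.79 ± 0.0678 and 3.51 ± 0.894 (SD, n = 3), in the same order of groups, put the obese anti-PD-1 tumors at the top.

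Both VEGF receptors had the same order of group means, highest in nonobese isotype tumors, then in obese anti-PD-1, nonobese anti-PD-1 and obese isotype tumors. Kdr (ENSMUSG00000062960.10, chr5:75932827-75978458, minus strand) was at 28.2, 31.7 and 34.02 CPM in nonobese isotype tumors, 18.1, 23.2 and 31.8 with anti-PD-1, 24.4, 14.5 and 31.0 in obese isotype tumors and 16.8, 34.9 and 35.4 in obese anti-PD-1 tumors. Flt1 (ENSMUSG00000029648.13, chr5:147561604-147726011, minus strand) was at 30.03, 25.8 and 24.2 CPM in nonobese isotype tumors, 18.8, 21.7 and 21.1 with anti-PD-1, 24.4, 13.4 and 18.2 in obese isotype tumors and 17.4, 23.1 and 25.8 in obese anti-PD-1 tumors. Every nonobese anti-PD-1 tumor was below every nonobese isotype tumor for Flt1, and the obese isotype tumors overlapped the nonobese isotype tumors by 1 tumor. Per length, Kdr was 1.40-fold to 2.55-fold above Flt1 in the 12 tumors, with a median of 1.73.

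The angiopoietin receptor showed the widest differences. Tek (ENSMUSG00000006386.15, chr4:94739289-94874976, plus strand) was at 1.38, 3.94 and 4.66 CPM in nonobese isotype tumors, 0.508, 1.42 and 1.43 with anti-PD-1, 2.27, 1.19 and 1.72 in obese isotype tumors and 1.55, 3.05 and 4.29 in obese anti-PD-1 tumors. Nonobese isotype replicate 1 was far below the other two of its group and within the range of the nonobese anti-PD-1 tumors, so these groups overlapped, whereas the obese and the nonobese anti-PD-1 tumors did not. Tie1 (ENSMUSG00000033191.14, chr4:118471191-118490061, minus strand) was at 17.8, 23.3 and 31.3 CPM in nonobese isotype tumors, 16.6, 17.3 and 17.6 with anti-PD-1, 20.3, 11.8 and 14.1 in obese isotype tumors and 14.4, 19.7 and 24.8 in obese anti-PD-1 tumors. The nonobese anti-PD-1 tumors were thus nearly equal for Tie1 and lay just below the nonobese isotype tumors. The ratio of Tek to Tie1 per length ran from 0.0320 in a nonobese anti-PD-1 tumor to 0.181 in an obese anti-PD-1 tumor, with a median of 0.115.

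Endoglin and endomucin had the lowest coefficients of variation of the 10 genes, 14.6% and 17.3%. Eng (ENSMUSG00000026814.16, chr2:32646595-32682669, plus strand) was at 447, 440 and 451 CPM in nonobese isotype tumors, 415, 374 and 353 with anti-PD-1, 396, 259 and 366 in obese isotype tumors and 325, 424 and 388 in obese anti-PD-1 tumors. The 3 nonobese isotype tumors were nearly equal and above all 9 other tumors. Emcn (chr3:137341067-137432185, plus strand) lay between 7.37 and 11.98 CPM, and all 4 groups overlapped.

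**Figure D2:**
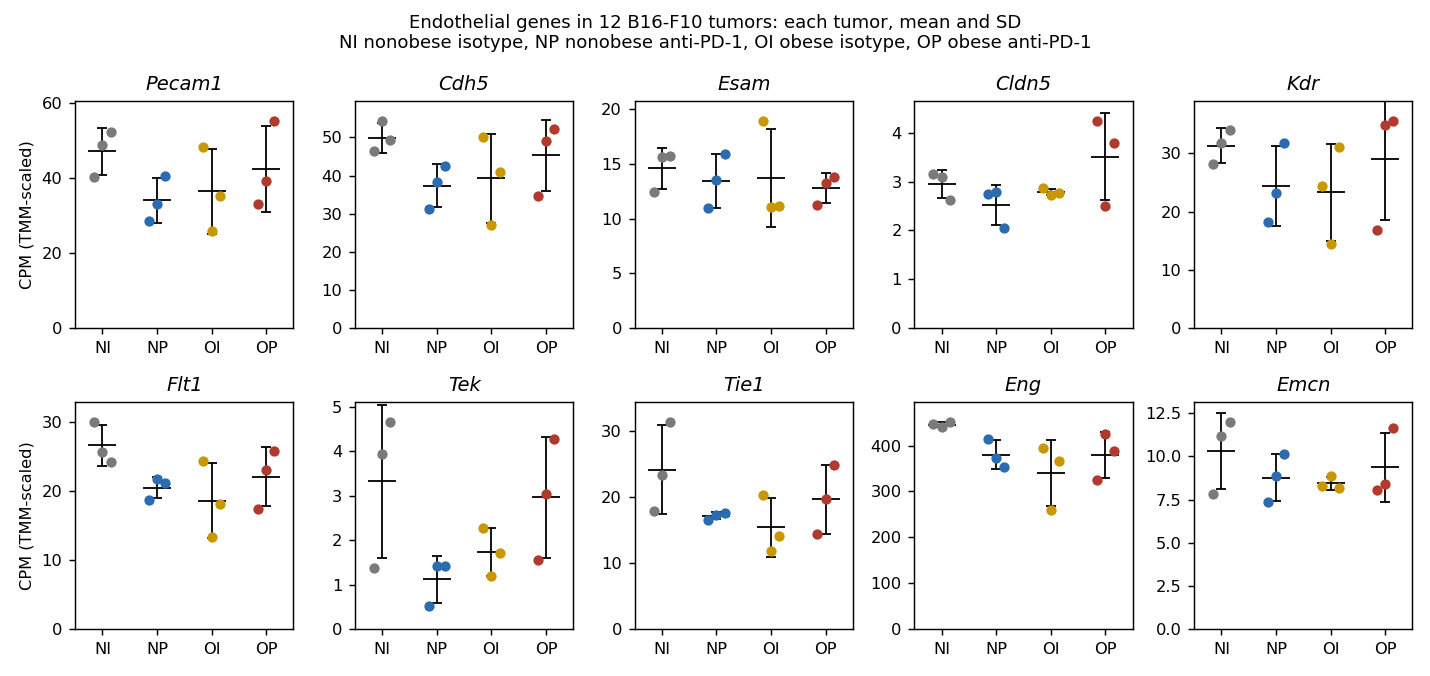
CPM of each gene in each tumor (points), with the mean and SD of its group (bars, n = 3), in the 4 groups of diet and antibody. The nonobese isotype tumors (gray) lie above the nonobese anti-PD-1 tumors (blue) without overlap for Cdh5, Flt1, Tie1 and Eng.

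The first comparison asked whether anti-PD-1 went with other levels of endothelial genes in nonobese mice. All 10 genes were lower with anti-PD-1, at a median log2 fold change of -0.37 and a range from -1.54 to -0.12, whereas the median of all genes was 0.02 and 45% of all genes were below 0. Tek was lower by 2.91-fold (log2 -1.54, SE 0.52, FDR = 0.833) and was the only 1 of 10 past the thresholds, which 2.31% of all genes passed in this direction. Tie1 was at -0.49 (SE 0.24, FDR = 0.929), Pecam1 at -0.47 (SE 0.23), Cdh5 at -0.42 (SE 0.20), Flt1 at -0.38 (SE 0.20) and Kdr at -0.36 (SE 0.29), none of which passed. The groups did not overlap for 4 of 10 genes, against 5.37% of all genes in this direction. At an unadjusted P below 0.05 stood 1 of 10 genes by edgeR, against 3.59% of all genes, and 4 by DESeq2, against 3.93%. No gene of the 10 reached an FDR below 0.05 by either tool, and of all genes 0% did by edgeR and 0.0687% by DESeq2. Without nonobese isotype replicate 1 or without nonobese anti-PD-1 replicate 3, 3 of 10 genes stood at an unadjusted P below 0.05, against 5.02% and 4.95% of all genes in these fits. The count was 5 without obese isotype replicate 1 (3.54%), 4 without obese isotype replicate 2 (4.02%) and 3 without obese anti-PD-1 replicate 1 (4.29%). It was 1 or 2 in the other fits with 1 tumor left out. Without both shallowest tumors it was 6 (5.06%), as with only the 6 tumors compared (4.54%). Without nonobese anti-PD-1 replicate 1, Esam was at 0.0091 and 9 of 10 genes were lower.

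In obese mice the same comparison pointed the other way for most genes, without a call. Of the 10 genes 9 were higher with anti-PD-1, with a median log2 fold change of 0.23, against -0.01 for all genes, of which 47.6% were above 0. Tek was at 0.78 (SE 0.51, FDR = 0.755), Tie1 at 0.35 (SE 0.24), Cldn5 at 0.33 (SE 0.26) and Kdr at 0.32 (SE 0.30), and Esam was the only one below 0, at -0.10 (SE 0.22). The 95% interval of every gene held 0, for example -0.33 to 1.88 for Tek and -0.17 to 0.48 for Eng. The count past the thresholds was 0 of 10, against 2.44% of all genes in either direction. At an unadjusted P below 0.05 it was also 0 of 10 by edgeR and by DESeq2, against 7.57% and 7.96% of all genes, and 0 of 10 groups did not overlap, against 12.4%. At an FDR below 0.05 the count was 0 of 10 by edgeR and by DESeq2, against 0% and 0.802% of all genes. The median ran from 0.08 without obese isotype replicate 2 to 0.40 without obese isotype replicate 1, and it was 0.20 without both shallowest tumors.

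The tumors of isotype-treated mice compared the diets without anti-PD-1. In the paper obese mice had significantly larger tumors than nonobese mice, and the part of tumor size was not tested. All 10 genes were lower in obese mice, with a median log2 fold change of -0.38, against 0.01 for all genes, of which 47.9% were below 0. Tie1 was at -0.64 (SE 0.24, FDR = 0.313), Flt1 at -0.51 (SE 0.20, FDR = 0.317) and Eng at -0.39 (SE 0.15, FDR = 0.317). These 3 of 10 stood at an unadjusted P below 0.05, against 6.17% of all genes in this direction (by DESeq2 also 3, against 7.42%), and 0 of 10 passed the fold threshold as well, against 1.12%. Tek had the largest difference, -0.92, with an SE of 0.51. Only the groups of Eng did not overlap, 1 of 10 against 9.02% of all genes. At an FDR below 0.05 were 0 of 10 genes by edgeR and DESeq2, against 0% and 1.53% of all genes. Obese isotype replicate 2, 1 of the shallowest libraries, held the lowest tumor of 6 of the 10 genes. Without it, 0 of 10 stood at an unadjusted P below 0.05, against 3.31% of all genes in that fit, and the median was -0.21. Without both shallowest tumors 1 did (3.93% of all genes), without obese isotype replicate 3 also 1 (7.85%), and without obese isotype replicate 1 it was 5 (8.51%). Esam was above 0 without obese isotype replicate 2 (0.0354), without replicate 3 (0.0319) and without both shallowest tumors (0.0356), so that 9 of 10 genes were then lower.

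With anti-PD-1, 8 of 10 genes were higher in the obese mice, and 5 of 10 were when obese anti-PD-1 replicate 3 was left out. The median log2 fold change of obese against nonobese tumors was 0.23, against -0.01 for all genes, of which 46.9% were above 0. Tek was 2.63-fold higher in obese mice (log2 1.39, SE 0.52, FDR = 0.358), the only 1 of 10 past the thresholds, which 3.69% of all genes passed in this direction. It was also the only gene at an unadjusted P below 0.05 (5.71% of all genes; by DESeq2 1 of 10 and 6%) and the only one whose groups did not overlap (6.54% of all genes). Cldn5 was at 0.47 (SE 0.26), Pecam1 at 0.32 (SE 0.23), Cdh5 at 0.28 (SE 0.21) and Kdr at 0.26 (SE 0.30), whereas Esam was at -0.07 (SE 0.21) and Eng at -0.01 (SE 0.15). Eng changed sign in 7 of the alternatives listed below, so no direction is given for it. At an FDR below 0.05 were 0 of 10 genes by edgeR and by DESeq2, against 0.382% and 2.06% of all genes. Tek no longer passed the thresholds without nonobese anti-PD-1 replicate 1 (log2 1.07) or without obese anti-PD-1 replicate 3 (log2 1.03). Without obese anti-PD-1 replicate 3, Flt1 (-0.02), Tie1 (-0.0076) and Emcn (-0.0989) fell below 0 and the median was 0.04, and without nonobese anti-PD-1 replicate 1 the median was 0.13. Without both shallowest tumors 10 of 10 genes were higher, 4 stood at an unadjusted P below 0.05, against 7.79% of all genes in that fit, and the median was 0.35.

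The difference between the responses to anti-PD-1 of obese and nonobese mice was tested as an interaction. All 10 differences were positive, meaning a higher log2 fold change in obese mice, with a median of 0.62 against -0.04 for all genes, of which 45.6% were above 0. Tek differed by 2.31 on the log2 scale (SE 0.73, FDR = 0.212), with a 95% interval of 0.74 to 3.88, and was the only 1 of 10 past the thresholds, which 4.93% of all genes passed in this direction. Tie1 differed by 0.84 (SE 0.34, FDR = 0.322) and Flt1 by 0.62 (SE 0.28, FDR = 0.369), so that 3 of 10 stood at an unadjusted P below 0.05, against 7.01% of all genes, and 5 did by DESeq2, against 7.84%. Pecam1 was at 0.68 (SE 0.32), Kdr at 0.68 (SE 0.42), Cdh5 at 0.62 (SE 0.29) and Cldn5 at 0.55 (SE 0.37), whereas Esam was at 0.01 (SE 0.30) and turned sign in several alternatives. At an FDR below 0.05 were 0 of 10 genes by edgeR and DESeq2, against 0% and 2.16% of all genes. The count at an unadjusted P below 0.05 was 1 without obese isotype replicate 2, obese isotype replicate 3 or obese anti-PD-1 replicate 3, against 5.83%, 8.38% and 5.1% of all genes in these fits. It was 6 without obese isotype replicate 1 or nonobese anti-PD-1 replicate 3 (8.16% and 7.9% of all genes), and 7 without obese anti-PD-1 replicate 1 or without both shallowest tumors (8.93% and 7.71%). In 3 of these fits genes outside the 10 also reached an FDR below 0.05, 37 without nonobese anti-PD-1 replicate 3, 197 without obese anti-PD-1 replicate 1 and 43 without both shallowest tumors, against 0 of all genes with the 12 tumors. The 5 comparisons share tumors: the nonobese isotype group, the highest for 9 of 10 genes by its mean, enters 3 of them.

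**Figure D3:**
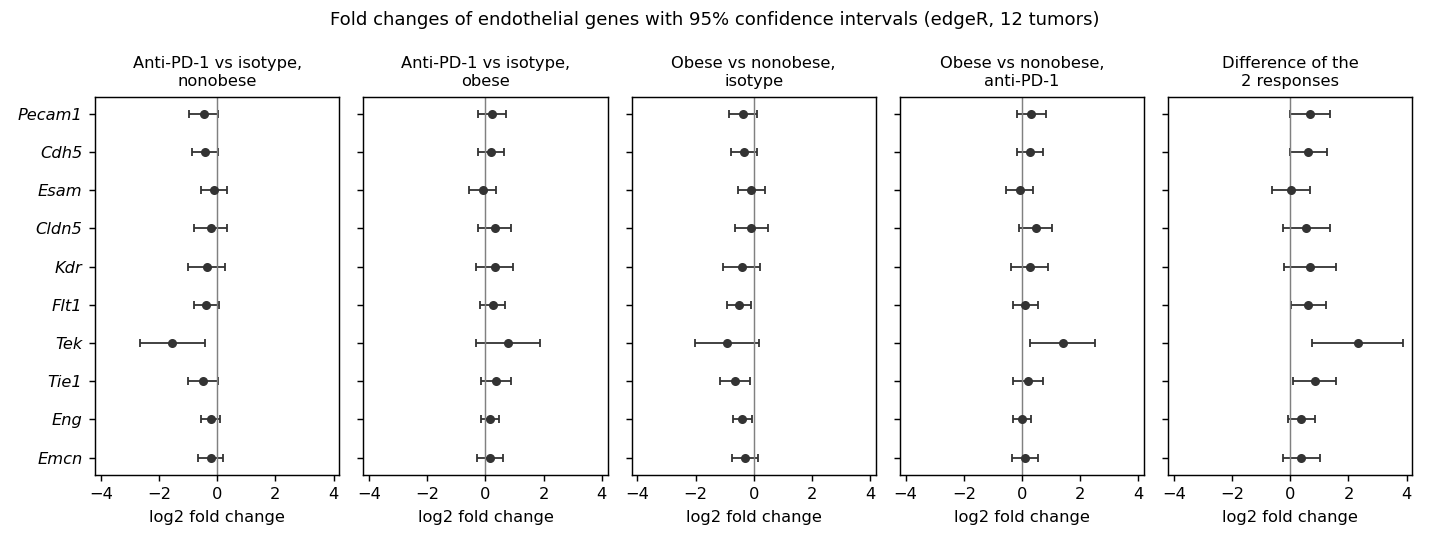
Log2 fold change of each gene with its 95% confidence interval (edgeR, model of 12 tumors) in the 5 comparisons. Intervals that exclude 0 are those of Tek in 3 panels, of Flt1, Tie1 and Eng for obese against nonobese isotype tumors, and of Flt1 and Tie1 for the difference of the responses.

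Most of the genes were high or low in the same tumors, also within groups. Each gene was correlated over the 12 tumors with the mean log2 CPM of the other 9, as a description, since these genes share libraries and groups. Pearson r was 0.966 for Pecam1, 0.943 for Cdh5, 0.883 for Tie1, 0.810 for Tek, 0.792 for Kdr, 0.770 for Flt1, 0.674 for Emcn, 0.660 for Esam and 0.638 for Eng. Cldn5 did not go with the others at all, with r = 0.002, and with -0.374 after each group's mean was removed, where the other 9 ran from 0.533 (Eng) to 0.958 (Pecam1). Over the 45 pairs of genes r ran from -0.278 to 0.938 with a median of 0.684. All 10 genes were above their own 12-tumor mean in nonobese isotype replicate 2 and in obese anti-PD-1 replicate 3, and all 10 were below it in obese isotype replicate 2. In 9 of 10 genes nonobese anti-PD-1 replicate 1, obese isotype replicate 3 and obese anti-PD-1 replicate 1 were below the mean, and nonobese isotype replicate 3 was above it. Tumors of 1 group thus lay on both sides of the mean in each of the obese groups. With the logarithm of total counts, r was between -0.051 for Cldn5 and 0.717 for Flt1, and the part of depth in these patterns was not tested.

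**Figure D4:**
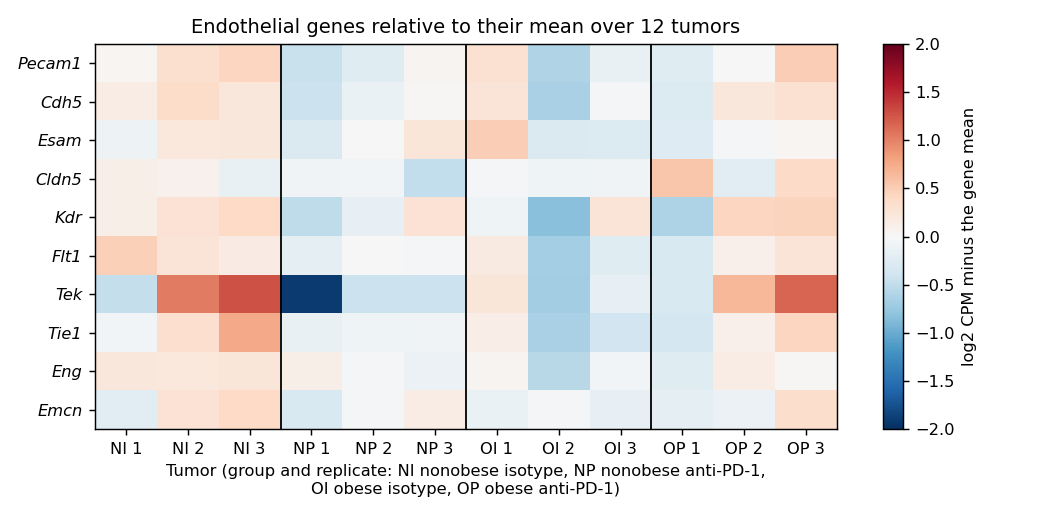
Log2 CPM of each gene minus its mean over the 12 tumors, with tumors in columns by group and replicate. Obese isotype replicate 2 is below the mean for 10 of 10 genes, obese anti-PD-1 replicate 3 above it for 10 of 10, and Tek spans the widest range, from -1.92 to 1.28.

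Most of the 15 genes outside the 10 that were most like them were in none of the lists, so their cell type was not assessed. Thy1 had the highest r with the mean of the 10 genes over the 12 tumors (0.972, Spearman's rho 0.951), followed by Ncf1 (0.969), Mfap2 (0.966), Stab1 (0.965), Col5a1 (0.962), Rassf4 (0.961), Cmklr1 (0.961), Lama2 (0.960), Sdc3 (0.959), Il4ra (0.956), Col1a2 (0.952), Cfp (0.952), S1pr3 (0.952), Nfam1 (0.950) and Pcdhgc3 (0.950). Of these 15, 2 are in the list of fibroblast markers (Thy1 and Col1a2) and 1 in the list of other endothelial genes (Stab1, a scavenger receptor of sinusoidal endothelium and macrophages). Of the 37 tested genes in the list of other endothelial genes, 3 were among the 100 genes most like the 10 and 12 among the 500 most like. Ncf1 encodes a subunit of the phagocyte NADPH oxidase, and Col5a1 and Col1a2 encode fibrillar collagen chains. By deviations from the group means 8 of the 15 stayed among the first 15.

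Marker genes of other cells had a similar order of tumors. The summed level of 10 fibroblast markers was 604 to 2810 CPM in nonobese isotype tumors, 273 to 546 in nonobese anti-PD-1, 209 to 1092 in obese isotype and 426 to 1867 in obese anti-PD-1 tumors. The summed level of 12 leukocyte markers was 144 to 307, 100 to 123, 82.6 to 179 and 144 to 332 CPM in the same order. The 12 markers of pericytes and smooth muscle, the cells that wrap vessels, summed to 239 to 303, 143 to 225, 92.4 to 207 and 106 to 304 CPM. The 9 endothelial genes without Eng summed to 187 to 226, 135 to 183, 116 to 200 and 141 to 227 CPM. Thus the nonobese anti-PD-1 tumors were below the nonobese isotype tumors without overlap in all 4 sums. None of the 3 marker lists had a gene at 0 in every tumor.

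The median log2 fold changes of these 3 lists, and of the markers of adipocytes and skeletal muscle, had the sign of the endothelial median in all 5 comparisons. For the fibroblast markers they were -1.88, 0.72, -0.999, 1.42 and 2.61, in the order in which the comparisons are given above. For the leukocyte markers they were -0.87, 1.05, -0.50, 1.42 and 2.11, and for the pericyte and smooth muscle markers -0.43, 0.22, -0.54, 0.15 and 0.68. For 8 tested adipocyte markers they were -1.90, 3.05, -1.46, 2.96 and 5.13, and for 10 skeletal muscle markers -0.16, 2.41, -2.005, 0.46 and 2.48. The medians of 5 platelet markers (-0.31, 0.40, 0.04, 0.28 and 0.71) and of 2 red blood cell markers (0.02, 1.15, -0.89, 0.23 and 1.13) had the endothelial sign in 4 of the 5. The summed adipocyte markers were 14.4 to 29.7, 9.10 to 14.001, 10.1 to 11.6 and 17.6 to 50.9 CPM in the order of groups above. The summed skeletal muscle markers ranged widely within groups, at 18.3 to 403, 9.20 to 424, 13.5 to 148 and 44.3 to 661 CPM. None of the adipocyte or skeletal muscle markers was at 0 in every tumor, whereas Hba-a1 and Hba-a2 of the red blood cell list were. The endothelial medians were -0.37, 0.23, -0.38, 0.23 and 0.62. The medians of the 10 melanoma markers were nearer 0, at 0.04, 0.00, 0.15, 0.10 and -0.07, and these markers summed to between 26179 and 32114 CPM. Single melanoma markers went both ways, from -0.45 to 0.36 for the diets with isotype and from -0.20 to 0.44 with anti-PD-1. At an unadjusted P below 0.05, 1 was higher and 1 lower with isotype (7.11% and 6.17% of all genes). With anti-PD-1, 2 were higher (5.71%). Tek had r = 0.950 with the mean of the fibroblast markers over the 12 tumors, above its r of 0.810 with the other endothelial genes, whereas Kdr, Flt1 and Eng had r = 0.904, 0.891 and 0.803 with the pericyte and smooth muscle markers. The part of other cells in the endothelial differences was not tested.

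**Figure D5:**
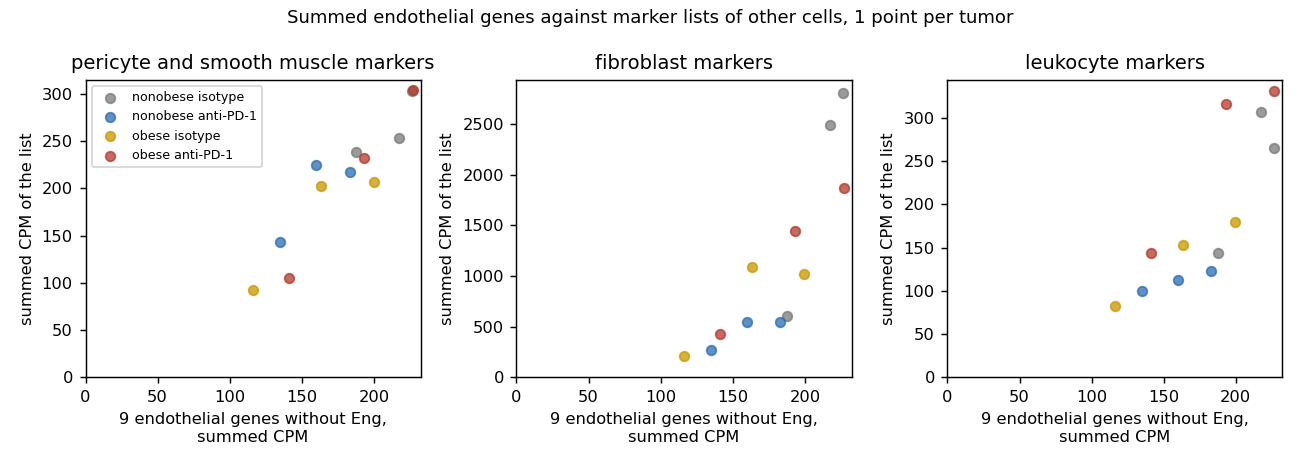
Summed CPM of the 9 endothelial genes without Eng (horizontal) against the summed CPM of pericyte and smooth muscle, fibroblast and leukocyte markers (vertical), 1 point per tumor colored by group. The endothelial sum runs from 116 CPM in an obese isotype tumor to 227 in an obese anti-PD-1 tumor.

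Other genes known from endothelium had medians of the same sign as the 10 genes, and smaller. Of 40 such genes 37 were tested. In nonobese mice 30 of 37 were lower with anti-PD-1 (median -0.27), in obese mice 27 were higher (median 0.18), with isotype 32 were lower in obese mice (median -0.29), and with anti-PD-1 24 were higher (median 0.16). For the difference of the responses 29 of 37 were positive (median 0.48). Of all 108 genes tested from the lists described here and in the next paragraphs, 4, 5, 2, 7 and 10 passed the thresholds in the 5 comparisons, against 2.42%, 2.44%, 1.37%, 4.25% and 5.76% of all genes in either direction. For the 37, the median r with the mean of the 10 genes was 0.718, against -0.059 for all genes tested. Past the thresholds in any comparison were 3 of the 37. Fabp4, a fatty acid binding protein of capillary endothelium, adipocytes and macrophages, was 1.19 higher on the log2 scale in obese anti-PD-1 than in obese isotype tumors (SE 0.24, FDR = 0.192 by edgeR and 0.00207 by DESeq2) and in obese against nonobese anti-PD-1 tumors by 1.35 (SE 0.24, FDR = 0.0393), the only one of the 37 with an FDR below 0.05. Its FDR was 0.162 in a model of only the 6 tumors compared, 0.144 and 0.266 without nonobese anti-PD-1 replicate 1 or 2, and 0.0564 and 0.185 without obese anti-PD-1 replicate 2 or 3, with log2 fold changes of 1.19 to 1.55 when any 1 tumor was left out. Fabp4 was at 41.6, 26.1 and 44.8 CPM in obese anti-PD-1 tumors and between 12.5 and 22.5 CPM in the other 9, so this group stood apart. The summed adipocyte markers moved with it, at 17.6 to 50.9 CPM in obese anti-PD-1 tumors and 10.1 to 11.6 in obese isotype tumors, and their part in the Fabp4 result was not tested. Lyl1, a transcription factor of blood and endothelial cells, was 1.16 higher in the first of these comparisons (SE 0.54, FDR = 0.658) at 0.28 to 2.07 CPM, and at 1.11 without both shallowest tumors, where it no longer passed. Stab1 passed for the difference of the responses (1.22, SE 0.53, FDR = 0.350), as did Fabp4 (1.59, SE 0.34, FDR = 0.117, and 0.00229 by DESeq2).

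Of the listed ligands of the VEGF family, which need not all bind Kdr or Flt1, Vegfa did not pass the thresholds in any comparison, whereas Figf passed them in 3. Vegfa, the ligand of both Kdr and Flt1, was at 176, 144 and 105 CPM in nonobese isotype tumors, 143, 157 and 178 with anti-PD-1, 173, 117 and 104 in obese isotype tumors and 178, 101 and 144 in obese anti-PD-1 tumors. All groups of Vegfa overlapped, and its log2 fold changes were between -0.18 and 0.17 with SE 0.23 in the comparisons of 2 groups. Pgf, the placental growth factor that binds Flt1, was 0.90 higher in obese anti-PD-1 than in obese isotype tumors (SE 0.41, FDR = 0.651), below the fold threshold. Figf, which encodes VEGF-D, was low at 0 to 1.76 CPM, with -3.54 (SE 1.09, FDR = 0.833) for anti-PD-1 in nonobese mice, 3.73 (SE 1.09, FDR = 0.186, and 0.0374 by DESeq2) for the diets with anti-PD-1 and 4.67 (SE 1.41, FDR = 0.190) for the difference of the responses.

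On the angiopoietin side, Angpt2, a ligand of TIE2 that endothelial cells make, was at 35.1 to 63.2 CPM, and its log2 fold changes were between -0.07 and 0.17 with SE 0.20 in the comparisons of 2 groups. Angpt1, the activating ligand of TIE2, was below 1 CPM in every tumor (0.05 to 0.84) and was not tested. Per length, Angpt2 was 9.81-fold to 102-fold above Tek, a ratio that was 58.5, 11.4 and 9.81 in nonobese isotype, 102, 53.0 and 45.8 in nonobese anti-PD-1, 26.7, 43.0 and 31.1 in obese isotype and 39.9, 21.7 and 13.1 in obese anti-PD-1 tumors. Nonobese isotype replicate 1 thus lay within the range of the nonobese anti-PD-1 tumors. Ptprb, the phosphatase that acts on TIE2, was at 5.32 to 16.7 CPM and between -0.25 and 0.06 with SE 0.34. Svep1, a matrix protein that binds TIE1, was at -2.19 (SE 0.91, FDR = 0.912) for anti-PD-1 in nonobese mice and 2.03 (SE 0.91, FDR = 0.463) for the diets with anti-PD-1. Dok2, an adaptor recruited by TIE2 and found in leukocytes, was at 1.43 (SE 0.57, FDR = 0.570) for anti-PD-1 in obese mice and -1.28 (SE 0.56, FDR = 0.360) for the diets with isotype. Without both shallowest tumors Dok2 was at 1.19 and -0.87 in these comparisons and passed in neither. Of the 18 genes of this list 16 were tested, and Figf, Svep1 and Dok2 were those past the thresholds. Svep1 and Dok2 also passed for the difference of the responses, at 3.72 (SE 1.28, FDR = 0.252) and 2.35 (SE 0.79, FDR = 0.242).

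The Notch genes that pattern tip and stalk cells showed no member past the thresholds among 16 tested. Dll4, the Notch ligand of tip cells, was at 7.55 to 13.8 CPM, with log2 fold changes from -0.15 to 0.07 (SE 0.22 to 0.23) in the comparisons of 2 groups. The smallest P values were those of Cxcr7, a scavenging chemokine receptor, and Aplnr, the apelin receptor, for anti-PD-1 in nonobese mice (-0.66, SE 0.28, FDR = 0.912 and -0.80, SE 0.39, FDR = 0.929). In obese mice they were those of Hey1 (0.66, SE 0.42) and Notch4 (0.36, SE 0.32). With isotype they were Hes1 (-0.60, SE 0.30) and Jag1 (-0.32, SE 0.19), and with anti-PD-1 Jag1 (-0.47, SE 0.19) and Jag2 (-0.94, SE 0.50).

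Around endoglin, Acvrl1, the ALK1 receptor that works with it, was at 80.2 to 124 CPM. It was 0.26 higher (SE 0.12) both with anti-PD-1 in obese mice (FDR = 0.658) and in obese against nonobese anti-PD-1 tumors (FDR = 0.482). Gdf2 and Bmp10, which encode the circulating ligands BMP9 and BMP10, were listed at 0 counts in all 12 tumors. Smad9, a SMAD of the BMP branch, was at 0.07 to 1.19 CPM and passed the thresholds for the diets with isotype (-1.85, SE 0.63, FDR = 0.283) and for the difference of the responses (2.11, SE 0.87, FDR = 0.333), and it still passed without both shallowest tumors, at -1.49 and 2.05. It was the only 1 of 15 tested genes of this list past them. Of the 14 tested junction partners 0 passed, and the smallest P values were mostly those of F11r, which encodes JAM-A. F11r was at -0.48 (SE 0.18, FDR = 0.859) for anti-PD-1 in nonobese mice, 0.39 (SE 0.18) in obese mice, -0.49 (SE 0.18, FDR = 0.299) for the diets with isotype and 0.86 (SE 0.25, FDR = 0.179) for the difference of the responses. Cldn12, a claudin, was at -0.26 (SE 0.12) for anti-PD-1 in obese mice and 0.27 (SE 0.12) for the diets with isotype, Jam3 at 0.21 (SE 0.12) for anti-PD-1 in nonobese mice, and Cd99l2 at 0.15 (SE 0.10) for the diets with anti-PD-1.

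Of 12 listed genes of endothelial activation 7 were tested, and 3 passed the thresholds in some comparison. These 3, Icam1, Vcam1 and Cd74, had their highest group mean in the obese anti-PD-1 tumors, whereas Procr, a protein C receptor, and Nfkbia, an inhibitor of NF-κB, had it in the obese isotype tumors (14.8 and 14.2 CPM) and Thbd, which encodes thrombomodulin, in the nonobese isotype tumors (3.67 CPM). Icam1, which binds leukocyte integrins, was at 2.75, 7.77 and 10.2 CPM in obese anti-PD-1 tumors and 3.15, 1.61 and 3.10 in obese isotype tumors, a log2 fold change of 1.39 (SE 0.49, FDR = 0.486) with overlap. Vcam1, its counterpart for other integrins, was at 5.57, 11.6 and 9.35 CPM in obese anti-PD-1 tumors against 2.34, 2.85 and 4.28 in nonobese anti-PD-1 tumors, a log2 fold change of 1.49 (SE 0.34, FDR = 0.0928 by edgeR) without overlap. The FDR of Vcam1 was 0.00309 by DESeq2, 0.0427 with every gene of at least 1 count, 0.0298 with a replicate block and 0.0240 without both shallowest tumors. It was above 0.05 with RLE scaling (0.101), with at least 10 counts in every tumor (0.0882) and with only the 6 tumors compared (0.241). With 1 of these 6 tumors left out it was 0.0209 to 0.425, below 0.05 in 2 of 6 fits. Cd74, the invariant chain of MHC class II, was at 2.12 (SE 0.53, FDR = 0.122) in the same comparison and at -1.12 (SE 0.52, FDR = 0.929) for anti-PD-1 in nonobese mice. In the first of these the FDR of Cd74 was 0.0477 by DESeq2, 0.0444 with every gene of at least 1 count, 0.0360 with a replicate block and 0.0205 without both shallowest tumors. It was above 0.05 with RLE scaling (0.130), with at least 10 counts in every tumor (0.120) and with only the 6 tumors compared (0.340). With 1 of these 6 tumors left out it was 0.0139 to 0.477, below 0.05 in 1 of 6 fits. Icam1 also passed for the diets with anti-PD-1 (1.43, SE 0.49, FDR = 0.291) and Cd74 for anti-PD-1 in obese mice (1.64, SE 0.53, FDR = 0.423). For the difference of the responses all 3 passed, at 2.26 for Icam1 (FDR = 0.199, and 0.0465 by DESeq2), 1.58 for Vcam1 (FDR = 0.184) and 2.77 for Cd74 (FDR = 0.148). All 3 genes are also made by leukocytes, whose summed markers reached their highest value in that group. Chst4 and Glycam1 of high endothelial venules were at 0 counts in all 12 tumors. Of the 7 lymphatic genes 4 were tested. Lyve1, a hyaluronan receptor of lymphatic endothelium and some macrophages, was at 1.38, 3.32 and 7.27 CPM in nonobese isotype and 0.407, 0.742 and 0.223 in nonobese anti-PD-1 tumors, a log2 fold change of -3.05 (SE 0.75, FDR = 0.833 by edgeR and 0.0241 by DESeq2). It also passed the thresholds for the diets with anti-PD-1 (1.96, SE 0.75, FDR = 0.366) and for the difference of the responses (3.10, SE 1.01, FDR = 0.227). The groups did not overlap in either of these comparisons of 2 groups. Flt4, the VEGF-C receptor of lymphatic endothelium, was at 13.5 to 19.3 CPM in all tumors with log2 fold changes between -0.18 and 0.12.

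Several of these listed genes kept their direction but no longer passed the thresholds when 1 tumor was left out. For anti-PD-1 in nonobese mice, Svep1 (-1.74 to -2.13) and Cd74 (-0.73 to -1.17) did not pass without nonobese isotype replicate 2 or 3 or nonobese anti-PD-1 replicate 1 or 2. In obese mice Lyl1 (0.79 to 1.22) did not pass without obese isotype replicate 2 or 3 or obese anti-PD-1 replicate 2 or 3, Dok2 (1.02 to 1.39) without obese isotype replicate 2 or 3 or obese anti-PD-1 replicate 2, and Icam1 without obese isotype replicate 2 (1.17) or obese anti-PD-1 replicate 3 (1.01). For the diets with isotype Dok2 (-0.87 to -1.38) did not pass without replicate 2 or 3 of either group, and Smad9 without obese isotype replicate 1 (-1.58). For the diets with anti-PD-1 Svep1 (1.44 to 1.98) did not pass without nonobese anti-PD-1 replicate 1 or 2 or obese anti-PD-1 replicate 2 or 3, Lyve1 (1.61 to 1.89) without nonobese anti-PD-1 replicate 1 or 3 or obese anti-PD-1 replicate 3, and Icam1 without obese anti-PD-1 replicate 3 (1.04). For the difference of the responses Stab1 did not pass without nonobese isotype replicate 2 or 3, nonobese anti-PD-1 replicate 1, obese isotype replicate 2 or obese anti-PD-1 replicate 2 or 3 (0.90 to 1.19). Smad9 did not pass there without nonobese isotype replicate 3, nonobese anti-PD-1 replicate 1 or 3, obese isotype replicate 1 or 2 or obese anti-PD-1 replicate 2 (1.41 to 2.09).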

How the data were processed

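RNA of 12 B16-F10 tumors was sequenced by the authors as 100 bp single-end reads from TruSeq Stranded mRNA libraries made with 180 ng of total RNA. Per the submitters' notes and the methods, reads were checked with FastQC 0.11.5, aligned to mm10 with STAR 2.7.0f and counted per gene with HTSeq 0.9.1, and the authors deposited the raw counts, whole numbers that were not normalized. The strand setting and the gene annotation of the counting are not given in the sources used here, so genes that overlap on opposite strands are uncertain. Totals were 14022929 to 33871843 per tumor, 0 columns lacked a matching label and 0 rows named no gene. No 2 columns were identical.

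Counts were scaled by TMM and fitted in edgeR 4.0.16 under R 4.3.3, with filterByExpr (13095 genes), 4 group means, 8 residual degrees of freedom and the quasi-likelihood F-test (legacy=TRUE, the form of edgeR 3.28.1 named by the authors). The thresholds were a fold change above 2 with unadjusted P below 0.05, and Benjamini-Hochberg FDR values below 0.05. Standard errors come from the F statistic. The labels number the tumors of a group without naming mice, so P values measure the spread between these tumors, which may be technical in part. Reads had no molecular identifiers, and precision covers counting error and that spread only.

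Levels per length used the union of exons of GENCODE M21 on GRCm38, the assembly of mm10. Of 203 listed genes, 8 were matched through an older symbol and 1 was not matched. Correlations used log2 CPM with a prior count of 2. The 10 members and all lists were chosen with earlier results of these data known. Genes named were all members, listed genes past the thresholds or, where a list had none or more than 4, the 2 with the smallest P in a comparison, 7 ligands and receptors, and the 15 genes most like the members. The code was tested on simulated data. Alternatives were RLE scaling, DESeq2 1.42.0, other filters, the current glmQLFit, models of 6 tumors, a replicate block, each tumor left out and, added after seeing the data, both shallowest tumors left out.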

Additional observations from a re-analysis of the deposited data

Results flagged for a closer look

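Tek differed between the diets in its response to anti-PD-1, by 2.31 on the log2 scale (SE 0.73, FDR = 0.212 by edgeR), and this test of the difference passed the study's thresholds for fold change and unadjusted P but not an FDR below 0.05. Tek was lower with anti-PD-1 in nonobese mice (-1.54) and at 0.78 in obese mice. Over the alternatives, with each tumor left out in turn, the difference was between 1.97 and 2.69 and its FDR between 0.0689 and 0.501. Groups of 3 tumors were too small for a test of single outlying tumors.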

How the results depend on the processing

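The median log2 fold change of the 10 genes kept its sign in every comparison under all alternatives run, between -0.47 and -0.30 for anti-PD-1 in nonobese mice, 0.08 and 0.40 in obese mice, -0.55 and -0.21 for the diets with isotype, 0.04 and 0.35 for the diets with anti-PD-1, and 0.45 and 0.79 for the difference of the responses. The count at an FDR below 0.05 was 0 under each of them. Among all genes this count ran from 0 to 283 over these fits, the highest (2.16%) by DESeq2 for the difference of the responses. Low counts limit the precision for Tek (10 to 134 per tumor) and Cldn5 (39 to 105).

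Counts of genes at an unadjusted P below 0.05 moved more. The share of all genes in the same direction and fit is given in parentheses. For anti-PD-1 in nonobese mice (1 in the report) there were 4 by DESeq2 (3.93%) and 2 with every gene of at least 1 count (3.28%). There were 2 with a replicate block (4.05%), 6 with only the 6 tumors compared (4.54%) and 6 without both shallowest tumors (5.06%). With any 1 tumor left out, also of the obese groups, there were 1 to 5 (1.71% to 5.02%). In obese mice (0) there were 0 to 2 with a tumor left out, in the higher direction (2.93% to 6.58%). For the diets with isotype (3) there were 1 without both shallowest tumors (3.93%) and 0 to 5 with 1 tumor left out (3.31% to 8.51%). For the diets with anti-PD-1 (1) there were 4 without both shallowest tumors (7.79%) and 0 to 2 with 1 left out (3.85% to 7.16%). For the difference of the responses (3) there were 5 by DESeq2 (7.84%) and 5 with at least 1 count (6.15%). The stricter filter, 10 counts or more in each tumor, also gave 5 (6.92%). There were 7 without both shallowest tumors (7.71%) and 1 to 7 with 1 tumor left out (5.1% to 8.93%). Past the thresholds were 0 to 1 genes for the diets with isotype, 0 to 1 for the diets with anti-PD-1 and 1 to 2 for the difference, with 1 tumor left out. For these counts past the thresholds the share of all genes in each fit is not given here.

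Of 108 listed genes tested outside the members, 4, 5, 2, 7 and 10 passed the thresholds in the 5 comparisons, against 2.42%, 2.44%, 1.37%, 4.25% and 5.76% of all genes. With at least 10 counts in every tumor they were 1, 3, 0, 4 and 5, where fewer genes are tested. With 1 tumor left out they were 2 to 9, 2 to 7, 1 to 8, 4 to 7 and 8 to 19. For the diets with isotype they were 4 with at least 1 count, 1 with the replicate block and 1 without both shallowest tumors (Dok2 was lost), and for anti-PD-1 in obese mice 3 without both shallowest tumors (Lyl1 and Dok2 were lost). The shares of all genes past the thresholds in these alternative fits are not given here. A higher or lower count is therefore not read as a result about the listed genes.

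Signs turned only for small fold changes. With 1 tumor left out, Esam ran from -0.269 to 0.0091, -0.223 to 0.224, -0.412 to 0.0354, -0.196 to 0.0841 and -0.107 to 0.340 in the 5 comparisons. For anti-PD-1 in obese mice Pecam1 ran from -0.0088 to 0.491 and Emcn from -0.0264 to 0.274. For the diets with anti-PD-1 Flt1 ran from -0.02 to 0.26, Tie1 from -0.0076 to 0.382, Emcn from -0.0989 to 0.232 and Eng from -0.0978 to 0.102. Eng for the diets with anti-PD-1 was 0.0036 with RLE scaling and by DESeq2, 0.0196 with at least 10 counts, 0.0033 with only the 6 tumors and 0.102 without both shallowest tumors. Without them Esam was 0.0356 and 0.016 for the diets with isotype and with anti-PD-1, and -0.0195 for the difference, which was -0.0055 with at least 1 count and -0.0030 with the current glmQLFit. The causes were not tested.

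The labels do not say whether replicate numbers pair the tumors. Deviations of tumors of the same number from their group means had a mean correlation of 0.133 (-0.264 to 0.563). The mean for different numbers, -0.0623, adds nothing, since deviations cancel within a group and tie it to the first mean. Pairing by number is therefore not decided, and the replicate block is given only as an alternative. Leaving out TMM factors moved no value of the members by more than 8.63%.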
